A study of Mus musculus with 33 samples.

Results

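The Eif translation factors are the genes whose symbols begin with Eif followed by a digit from 1 to 6: 49 of the 21671 genes in the deposited table were members. The eIF2 kinases, the Y-linked gene Eif2s3y and pseudogene symbols were left out by the rule. Members fell into 9 role classes, of which the 13 subunits of eIF3 were the largest. Expression was measured by sequencing of strand-specific total RNA from 33 livers and liver nodules of C57BL/6 mice, in a study of MYC and β-catenin in liver tumorigenesis. In the first arm, mice aged 6 to 8 weeks received the virus AAV8-TBG-CRE, in which a hepatocyte promoter drives Cre recombinase, and livers were taken at 4 days. All 20 of these mice received the virus, 5 of them wild type (WT), 5 carrying the β-catenin exon 3 allele b-cat Ex3 (Ex3), 5 carrying the Cre-dependent MYC allele R26-lslMYC (MYC), and 5 carrying both alleles (MYC+Ex3). In the second arm, nodules came from mice with Alb-CreERT2, a Cre that is active in albumin-expressing cells when 4-hydroxytamoxifen (4-OHT) is given. There were 3 nodules with R26-lslMYC (MYC tumours) and 3 with R26-lslMYC and b-catEx3 (MYC+Ex3 tumours). Their controls were 7 wild-type livers taken 4 days after 4-OHT, for which no Cre allele is labelled. Treatment and age are not given for the tumours. The labels do not say that each library came from a separate animal, so p-values measure the spread between these libraries.

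Translation initiation joins a ribosome to an mRNA. eIF2 carries the initiator tRNA and is recharged by eIF2B, eIF3 holds the small ribosomal subunit, and eIF4E binds the mRNA cap, where the scaffold eIF4G and the helicase eIF4A assemble with it into eIF4F. Genes for ribosomes and translation factors are among the classic MYC targets, and the site that MYC binds with its partner MAX is the E-box CACGTG.

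Levels are given as RPKM, which relate the reads of a gene to its length and to a library total. In the AAV8-TBG-CRE livers read numbers of abundant genes grew less than depth. The median slope of log2 reads on log2 depth was 0.27 for the 50 genes with the highest mean RPKM. Levels of abundant genes may therefore be understated against those of less abundant genes. The 2 arms have RPKM on different scales and were analysed apart. The AAV8-TBG-CRE livers held 3.75 to 7.31 M reads in genes, and the tumours and 4-OHT livers 6.65 to 9.82 M. Mouse Myc, which need not capture a transgene of another sequence, was 2.57 ± 1.22 RPKM in WT livers and 3.99 ± 0.751 in MYC livers (SD, n = 5 each). Axin2, a β-catenin target, was 3.32 ± 0.609 RPKM in WT and 18.4 ± 5.37 in Ex3 livers. All 8 hepatocyte markers were present in every group. Epidermal keratin RNA (Krt5, Krt14 and Krt17 above 1 RPKM in sum) was found in 3 WT, 3 Ex3, 1 MYC and 3 MYC+Ex3 livers. By Xist and Ddx3y, 2 WT, 3 Ex3, 3 MYC and 4 MYC+Ex3 livers were male. MYC liver 5 held RNA of both sexes, with 86.1 RPKM of Xist and 4.74 of Ddx3y. MYC tumour 3 had 2.35 RPKM of Ddx3y and 0.015 of Xist, against 12.5 and 21.6 RPKM of Ddx3y in the other MYC tumours.

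The E-box letters were looked for around the transcription starts of the members, from 250 bases before to 50 bases after each start, in RefSeq promoter sequences of GRCm38.p6. CACGTG reads the same on both strands, so each match counts once for both. Of the 49 members 38 were in the promoter table, and 10 of these (26.3%) held the motif, against 8.09% of all 27025 genes in that table and 11.5% of the 10074 of them tested in the AAV8-TBG-CRE livers. Windows of 5 members are shown, 3 that were higher in MYC livers (Eif4e, Eif4a1 and Eif5a) and 2 that were not called there (Eif4g1 and Eif5a2), with CACGTG in capitals.
Eif4e, first site: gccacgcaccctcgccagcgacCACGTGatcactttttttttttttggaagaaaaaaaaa
Eif4e, next site: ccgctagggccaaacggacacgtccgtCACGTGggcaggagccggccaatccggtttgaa
Eif4a1: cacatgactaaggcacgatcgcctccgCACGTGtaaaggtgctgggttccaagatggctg
Eif5a: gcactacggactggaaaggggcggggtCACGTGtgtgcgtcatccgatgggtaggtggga
Eif4g1: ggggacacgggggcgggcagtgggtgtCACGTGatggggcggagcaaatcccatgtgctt
Eif5a2: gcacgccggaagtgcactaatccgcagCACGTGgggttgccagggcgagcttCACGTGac

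The Eif4e windows lie on the plus strand at chr3:138527018-138527077 and chr3:138527177-138527236, with the motif 228 and 64 bases before the start. The Eif4a1 window is on the minus strand at chr11:69672580-69672639, 189 bases before the start, and that of Eif5a on the minus strand at chr11:69921428-69921487, 74 bases before 1 of its starts. The Eif4g1 window is on the plus strand at chr16:20672646-20672705, 54 bases before the start, and that of Eif5a2 on the plus strand at chr3:28781108-28781167, where the motif occurs at 142 and 117 bases. The motif was held by 5 of 20 matched members that were higher in MYC livers (25.0%) and by 5 of 18 that were not called (27.8%). A match describes letters and is not evidence of a binding site.

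In WT livers the members spanned from 143 ± 15.2 RPKM for the helicase gene Eif4a1 to 0.143 ± 0.159 for Eif4e1b (SD, n = 5), a cap-binding protein gene known for its expression in oocytes. After Eif4a1 came the scaffold Eif4g1 (117 ± 8.48 RPKM), the second helicase Eif4a2 (107 ± 7.61), the helicase partner Eif4h (106 ± 8.42) and Eif5 (106 ± 5.38), the GTPase activator of eIF2. These last 3 did not differ beyond their spread. Cap-binding Eif4e itself was less abundant, at 30.9 ± 4.93 RPKM, as was its inhibitor Eif4ebp1 at 51.5 ± 10.9 RPKM. In 4-OHT livers Eif4a1 was again the most abundant member, at 29.7 ± 3.91 RPKM on the scale of that arm, followed by Eif4g1 at 27.4 ± 2.51, and Eif4e1b was the least (0.0158 ± 0.0136, n = 7). Eif4e1b fell below the filter on low values in both arms, and Eif5a2, the less abundant copy of Eif5a, in the tumour arm, which left 48 members tested in the first arm and 47 in the second.

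Expression of the family as a whole stood at 0.671% to 0.711% of the RPKM of all genes in WT livers and at 0.671% to 0.714% in Ex3 livers. The share was 0.781% to 0.958% in MYC livers and 0.791% to 0.865% in MYC+Ex3 livers, and no library with MYC overlapped one without it. In the tumour arm the share was 0.638% to 0.689% in 4-OHT livers, 0.784% to 0.947% in MYC tumours and 0.891% to 0.937% in MYC+Ex3 tumours. Both kinds of tumour lay above every control liver.

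**Figure D1:**
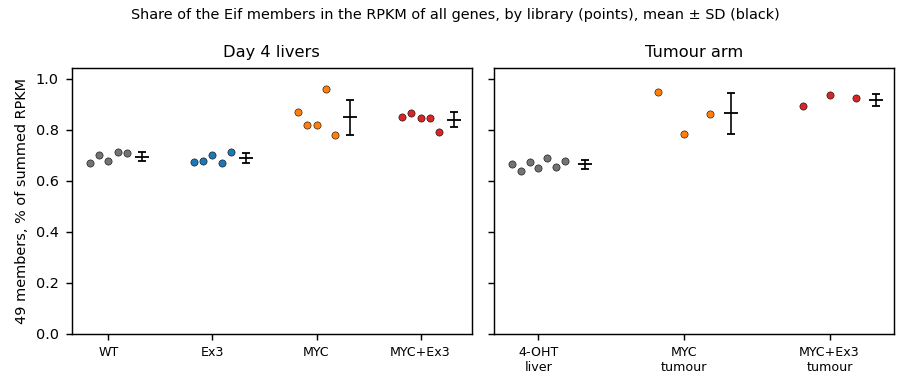
Share of the 49 Eif members in the summed RPKM of all genes (percent, vertical axis) by library (points), with mean ± SD in black, for AAV8-TBG-CRE livers (left, n = 5 a group) and the tumour arm (right, n = 7, 3 and 3). Every library with MYC lies at 0.781% or above, and every library without it at 0.714% or below.

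Changes below are differences in mean log2(RPKM + 1), a scale that understates changes of low genes, and genes were called at a limma adjusted p under 0.05 over all genes tested. The first question is what MYC alone did within 4 days. In MYC livers 25 of 48 members were higher than in WT livers and none lower, where 16.9% of all genes tested were called higher and 5.36% lower. The median change of the members was 0.40, against 0.07 for all genes. In 16 members (33.3%) every MYC liver lay above every WT liver, against 10.9% of all genes tested. The 25 included 4 of 5 subunits of eIF2B, 9 of 13 of eIF3, 3 of 5 members of the eIF2 class and none of the 3 eIF4G scaffolds.

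Eif4e, the cap-binding subunit of eIF4F, had 29.1, 31.0, 23.6, 35.9 and 34.9 RPKM in the WT livers and 60.5, 46.8, 55.7, 84.0 and 47.8 in the MYC livers. Every MYC liver exceeded every WT liver. Its change was 0.89 (SE 0.134, limma adjusted p = 7.06e-05), the lowest adjusted p of any member in the comparison. Eif4e2, a cap-binding homologue linked to translational repression, rose by 0.49 (limma adjusted p = 0.0014), and Eif4e3 was at 0.28 without passing the test (limma adjusted p = 0.252).

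Eif2b3 encodes the γ subunit of the exchange factor eIF2B and changed most of all members. Its levels were 4.52, 3.48, 3.81, 4.85 and 5.95 RPKM in WT livers and 11.7, 7.73, 7.78, 15.2 and 7.53 in MYC livers, with no overlap. The change was 0.96 (SE 0.186, limma adjusted p = 0.000851). Eif2s1, the α subunit of eIF2 whose phosphorylation slows initiation, went from 35.2 ± 4.12 to 56.1 ± 14.4 RPKM (SD, n = 5 each), a change of 0.63 with no overlap (limma adjusted p = 0.00218).

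Eif3b, a scaffold subunit of eIF3, had 35.8, 34.9, 25.0, 37.6 and 30.0 RPKM in WT livers and 50.2, 50.3, 51.7, 63.6 and 53.8 in MYC livers. It showed the largest rise within eIF3, 0.72 (SE 0.137, limma adjusted p = 0.000759), and the ranges did not overlap. The changes of the 13 eIF3 subunits ran from 0.24 to 0.72, so that those not called were also above 0. Eif1ad, an eIF1A-like gene, rose by 0.81 (limma adjusted p = 0.00153), although MYC liver 3, at 18.2 RPKM, lay within the WT range of 13.0 to 18.4.

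Of the helicase class, Eif4a3, which is known as a core protein of the exon junction complex, rose by 0.57 (limma adjusted p = 0.0128) and Eif4a1 by 0.37 (SE 0.121, limma adjusted p = 0.0347). Eif4a1 had 160, 129, 138, 159 and 130 RPKM in WT livers and 184, 170, 202, 233 and 144 in MYC livers, and MYC liver 5 fell inside the WT range. The call of Eif4a1 did not hold in 4 of 9 other settings. It was also lost without WT liver 2, 3 or 5 or MYC liver 1, 3 or 4, with changes of 0.28 to 0.37. Eif4a2, the paralog of Eif4a1, was at 0.00 (limma adjusted p = 0.998) and was -0.10 after rescaling by median ratios. Eif5a, whose protein carries the amino acid hypusine, rose by 0.47 (limma adjusted p = 0.0041) with no overlap, from 98.1 ± 4.83 to 138 ± 25.8 RPKM. The call of Eif5a was lost after rescaling (0.37, limma adjusted p = 0.0619). Eif6, which keeps ribosomal subunits apart, rose by 0.65 (limma adjusted p = 0.000552) with no overlap, from 57.2 ± 6.58 to 90.9 ± 16.5 RPKM.

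None of the genes for the scaffold that joins these parts was called. Eif4g1 and Eif4g2 are abundant members, whose changes may be understated. Eif4g1 had 122, 126, 118, 118 and 103 RPKM in WT livers and 144, 134, 116, 122 and 118 in MYC livers. The ranges overlapped and the change was 0.11 (SE 0.0786, limma adjusted p = 0.342). Over 9 other settings it ran from 0.01 to 0.11, and the log2 fold change in the authors' deposited table was 0.01. Eif4g2, an eIF4G relative that lacks the eIF4E-binding region, was at 0.02 (-0.09 after rescaling) and Eif4g3 at 0.32 (limma adjusted p = 0.37).

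The inhibitors of eIF4E did not move together. Eif4ebp1 rose by 0.55 (limma adjusted p = 0.00804), with 60.8, 42.1, 63.0, 53.0 and 38.6 RPKM in WT livers against 84.6, 90.5, 59.6, 81.5 and 62.4 in MYC livers. MYC livers 3 and 5 overlapped the WT range. Eif4ebp2 had 28.4, 47.4, 29.0, 31.9 and 25.3 RPKM in WT livers and 19.3, 26.6, 21.8, 14.1 and 35.8 in MYC livers, with MYC liver 5 the only one above the WT median. Its change of -0.48 did not pass the test (limma adjusted p = 0.104). It was called lower after rescaling (-0.58, limma adjusted p = 0.0471), with the keratin set as a covariate (-0.59, limma adjusted p = 0.0351) and without MYC liver 5 (-0.64, limma adjusted p = 0.0212). It was not called with another pseudocount, other filters, sex as a covariate, only the groups compared or only the livers without keratin RNA. Over 9 other settings its change ran from -0.65 to -0.18. The authors' deposited table did not call it (-0.54, DESeq2 adjusted p = 0.0942). Eif4ebp3 was at -0.46 with a wide spread (limma adjusted p = 0.483) and at 0.27 within the livers without keratin RNA.

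**Figure D2:**
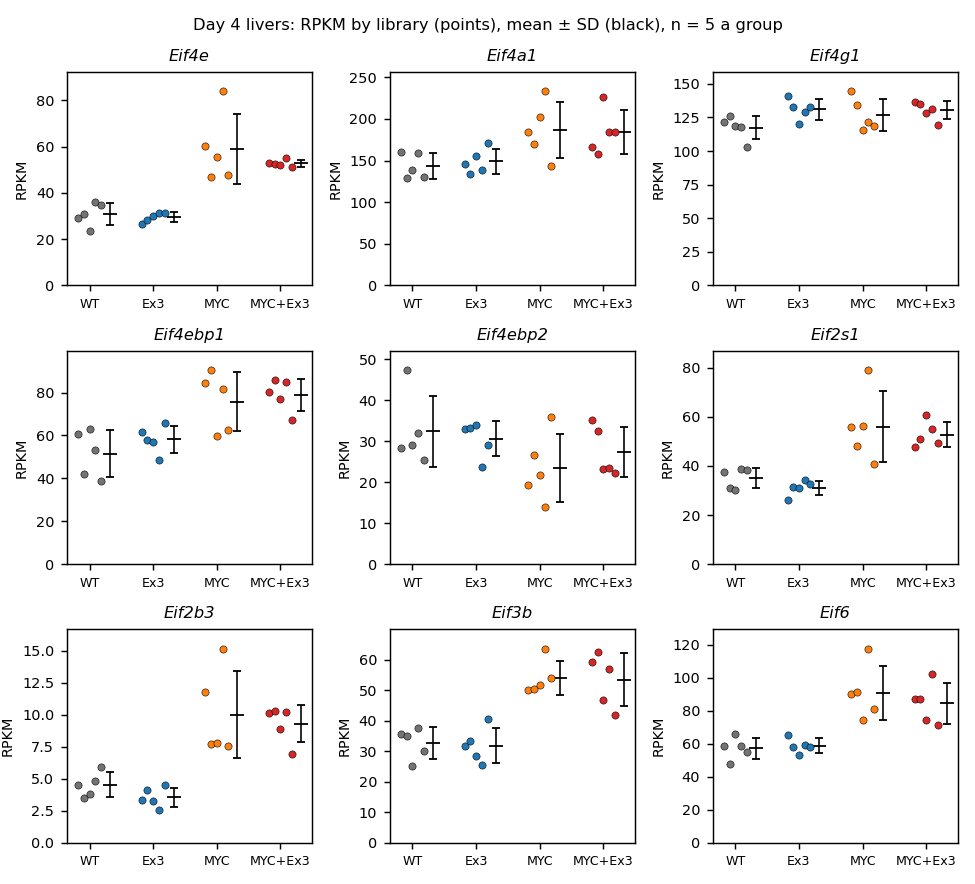
RPKM (vertical axes, from 0) of 9 Eif members in the AAV8-TBG-CRE livers by group, one point per library, with mean ± SD in black (n = 5 a group). Eif4e, Eif2s1, Eif2b3, Eif3b and Eif6 separate MYC and MYC+Ex3 livers from WT and Ex3 livers without overlap, while Eif4g1 lies between 103 and 144 RPKM in the WT and MYC livers.

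All 9 proliferation markers were also higher in MYC livers, with summed levels of 58.0 to 77.5 RPKM in WT and 282 to 602 in MYC livers; their part in the changes of the members was not tested. Rescaling by median ratios called 17 members higher and 1 lower, and turned 2313 higher and 734 lower genes into 1882 and 1302. Within the livers without keratin RNA (4 MYC and 2 WT) 7 members were higher, with 7.09% of all genes, among them Eif4e, Eif2b3, Eif3b and Eif6, with a median change of 0.31 over all members. The calls of Eif1ad, Eif2s1, Eif4a1, Eif4a3, Eif4e2, Eif4ebp1 and Eif5a were lost there. Their changes stayed above 0, at 0.59, 0.55, 0.22, 0.46, 0.37, 0.24 and 0.42 in that order, with 2 WT livers in the fit. The livers with keratin RNA held 1 MYC liver, so no value was computed within them. Without MYC liver 5, 30 members were called.

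Exon 3 deletion alone was compared next. In Ex3 livers 0 of 48 members were called against WT livers by limma, where 0.132% of all genes were called in either direction. At an unadjusted p under 0.05 there were 2 members (4.17%), near the 5.44% of all genes. The authors' deposited table called 0 members and 0.765% of genes. The changes ran from -0.34 to 0.34 with a median of 0.00. Eif4e was at -0.05, with 26.6, 28.2, 30.2, 31.5 and 31.2 RPKM in Ex3 livers, all within the WT range. Eif5a2 was the only member with every Ex3 liver below every WT liver, at 0.645 ± 0.135 against 1.09 ± 0.214 RPKM, which rests on 12 to 31 reads a library. Its change of -0.34 did not pass the test (limma adjusted p = 0.828), and it was singled out after its values were seen.

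Livers with both alleles were compared with WT next. In MYC+Ex3 livers 27 of 48 members were higher than in WT livers and none lower, where 17.9% of genes were called higher and 6.18% lower. The median change was 0.36, against 0.05 for all genes. Eif4e had 52.9, 52.4, 52.0, 55.3 and 51.2 RPKM, above every WT liver and with less spread than in MYC livers (SD 1.53 against 15.1). Its change was 0.77 (SE 0.134, limma adjusted p = 0.000261). All 5 eIF2B subunits were called, led by Eif2b3 at 0.90 (limma adjusted p = 0.00127), as were 9 of 13 eIF3 subunits. Eif2d, an initiator tRNA carrier that works outside eIF2, had 8.94 to 12.5 RPKM in WT livers and 16.5 to 21.1 in MYC+Ex3 livers, a rise of 0.73 (limma adjusted p = 0.000191). Eif4ebp1 rose by 0.63 (limma adjusted p = 0.00284), Eif6 by 0.55 and Eif5a by 0.45. Within the livers without keratin RNA the calls of Eif4ebp1 (0.41, limma adjusted p = 0.151) and Eif5a (0.32, 0.143) were lost, and that of Eif5a also after rescaling (0.37, 0.0589). Eif2s1 was called (limma adjusted p = 0.00392), but not within the livers without keratin RNA (0.54, limma adjusted p = 0.0581). Eif4a1 was called too (limma adjusted p = 0.039), but that call was lost in 5 of 10 other settings and in 6 of 20 fits without 1 library. Eif4g1, at 0.15, was not called (limma adjusted p = 0.173).

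Set against Ex3 livers, MYC+Ex3 livers had 27 members higher and none lower, where 16.4% of genes were higher and 4.7% lower. Eif2b3 again changed most, at 1.18 (limma adjusted p = 0.000119), with 2.54 to 4.48 RPKM in Ex3 and 6.89 to 10.3 RPKM in MYC+Ex3 livers, and 11 of 13 eIF3 subunits were called. In 23 members (47.9%) every MYC+Ex3 liver lay above every Ex3 liver, against 15.2% of all genes. Eif4ebp1 was called (limma adjusted p = 0.0334), but that call was lost in 4 of 10 other settings and in 6 of 20 fits without 1 library. Eif4a1 was not called (limma adjusted p = 0.0878). After rescaling 16 members were called higher, with 14.2% of all genes. Within the livers without keratin RNA 13 were called (12.4% of all genes), and the same number within those with it (10.7%). The 2 comparisons of MYC+Ex3 livers share those libraries, and the comparisons with WT share the controls.

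No member separated MYC+Ex3 from MYC livers. By limma 0 of 48 were called, where 0.19% of genes were called in either direction, and 0 had an unadjusted p under 0.05; the authors' deposited table called 0 as well. The changes ran from -0.16 to 0.25, and Eif4e was at -0.13. The interaction of MYC and Ex3, the difference between the effect of MYC with and without the Ex3 allele, called 0 of 48 members by limma (0 at an unadjusted p under 0.05) and 0.0% of all genes. Its values ran from -0.22 to 0.31. These results do not show that the effects were equal.

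The tumours were set against the 4-OHT livers. In MYC tumours 36 of 47 members were higher than in 4-OHT livers and 1 lower, where 36.2% of all genes tested were called higher and 13.7% lower. In MYC+Ex3 tumours 39 were higher and 1 lower, against 42.3% and 18.4% of genes. The median changes of the members were 0.61 and 0.68, against 0.19 and 0.23 for all genes. All 13 eIF3 subunits, all 5 eIF2B subunits and all 5 members of the eIF2 class were higher in both kinds of tumour, and none of the eIF4G scaffolds was called in either. In the eIF2 class, the call of Eif2s3x in MYC tumours (0.37, limma adjusted p = 0.0371) was lost after rescaling (0.16), against only the 4-OHT livers with S14 or only those with S15 in their titles (0.32 and 0.44) and on leaving out any of 6 single libraries, among them MYC tumours 1 (0.25) and 3 (0.38) and 4-OHT livers 3, 4, 6 and 7 (0.32 to 0.37).

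Eif4e had 6.34 to 9.56 RPKM in the 7 control livers (median 7.72), 14.1, 11.2 and 16 in MYC tumours and 14.7, 16.8 and 17.2 in MYC+Ex3 tumours. All 6 tumours lay above all controls. Eif4e changed by 0.76 in MYC tumours (SE 0.139, limma adjusted p = 0.000541) and by 0.99 in MYC+Ex3 tumours (3.5e-05). Eif4e2 was at 0.28 in MYC tumours (limma adjusted p = 0.162) and rose by 0.56 in MYC+Ex3 tumours (limma adjusted p = 0.00824, and 0.0625 without MYC+Ex3 tumour 3). That call was also lost after rescaling (0.37, limma adjusted p = 0.0573). The same held against only the 4-OHT livers with S15 in their titles (0.5, limma adjusted p = 0.0829).

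Eif4e3, a homologue of Eif4e in the same cap-binding family, was the only member called lower in either comparison, and is named after its values were seen. It had 2.61, 2.71, 2.91, 3.17, 3.21, 3.60 and 1.97 RPKM in control livers, 0.850, 1.28 and 0.851 in MYC tumours and 2.27, 0.999 and 1.21 in MYC+Ex3 tumours. All MYC tumours lay below all controls, while MYC+Ex3 tumour 1 lay within their range. Eif4e3 changed by -0.96 in MYC tumours (SE 0.161, limma adjusted p = 0.00029) and by -0.66 in MYC+Ex3 tumours (0.00267). In MYC livers at 4 days Eif4e3 was at 0.28 and in MYC+Ex3 livers at 0.14, neither called. In the authors' deposited table its log2 fold changes in the tumours were -1.69 and -1.13.

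Eif4enif1, which binds eIF4E and carries it into the nucleus, had 3.50 to 4.12 RPKM in control livers (median 3.89), 6.66, 7.28 and 7.57 in MYC tumours and 8.31, 8.75 and 9.93 in MYC+Ex3 tumours. The groups were far apart relative to their spread, and the limma changes of 0.74 (SE 0.0896, adjusted p = 2.55e-05) and 1.03 (adjusted p = 6.27e-07) had the lowest adjusted p of any member in both comparisons. In MYC livers at 4 days it was at 0.34 without a call (limma adjusted p = 0.0887). Eif4ebp1 rose by 0.65 in both kinds of tumour (limma adjusted p = 0.00611 and 0.00452). Eif4ebp2 was at 0.12 and 0.08 and Eif4ebp3 at -0.44 and 0.07, none of them called.

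Eif2b1, the α subunit of eIF2B, had 4.41 to 7.69 RPKM in control livers, 12.5, 9.09 and 12.8 in MYC tumours and 13.5, 15 and 16.1 in MYC+Ex3 tumours. No tumour overlapped the controls, with changes of 0.78 (limma adjusted p = 0.000913) in MYC tumours and 1.14 (2.37e-05) in MYC+Ex3 tumours. Eif2b3, at 1.33 ± 0.152 RPKM in controls (SD, n = 7), rose by 0.84 and 1.25 (limma adjusted p = 5.39e-05 and 8.49e-07). Within the eIF2 class Eif2s1 rose by 0.78 and 1.06, from 6.63 ± 1.07 RPKM in controls to 12.1 ± 1.95 and 14.9 ± 2.0 in the tumours (n = 3 each). Eif2a, an initiator tRNA carrier distinct from Eif2s1, rose by 0.84 and 0.88, with no tumour within the control range.

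Of the eIF3 subunits, Eif3f had 5.88 to 10.1 RPKM in controls and 18.4, 11.1 and 14.8 in MYC tumours, the largest change there (0.88, limma adjusted p = 0.000989). Eif3b had 7.18 to 9.83 RPKM in controls and 17.1, 18 and 21.0 in MYC+Ex3 tumours (1.01, limma adjusted p = 6.47e-06), the largest change of the complex there. Neither overlapped the controls. Eif1ad rose by 0.71 and 0.98, Eif4a3 by 0.66 and 0.81, and Eif5a by 0.53 and 0.60, all called by limma.

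Eif4a1 had 24.7 to 34.9 RPKM in control livers, 49.4, 32.6 and 36.8 in MYC tumours and 35.9, 42.9 and 43.6 in MYC+Ex3 tumours. MYC tumour 2 fell within the control range. It changed by 0.39 (limma adjusted p = 0.0391) in MYC tumours and by 0.45 (0.0163) in MYC+Ex3 tumours. The call in MYC tumours was lost in 6 of 8 other settings and on leaving out any of 7 single libraries, and without MYC tumour 1 the change was 0.22 (limma adjusted p = 0.196). That in MYC+Ex3 tumours was lost without MYC+Ex3 tumour 2 or 3, after rescaling (0.23, limma adjusted p = 0.129) and against either of those sets of 4-OHT livers alone (0.0528 and 0.0698). Eif6 was at 0.36 in MYC tumours (limma adjusted p = 0.0593) and rose by 0.45 in MYC+Ex3 tumours (limma adjusted p = 0.017), a call that was lost without MYC+Ex3 tumour 2 (0.42) or 3 (0.34), after rescaling (0.24) and against either of those sets of 4-OHT livers alone.

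None of the scaffolds was called. Eif4g1 had 23.9 to 31.0 RPKM in control livers, 35.8, 26.3 and 29.5 in MYC tumours and 29.2, 33.5 and 34.2 in MYC+Ex3 tumours, with overlap in both. The changes of 0.14 and 0.23 were not called (limma adjusted p = 0.335 and 0.113), and the change in MYC tumours was -0.07 after rescaling. Eif4g3 was at 0.11 and 0.13. Eif4g2 was at 0.13 in MYC tumours and at 0.24 in MYC+Ex3 tumours (limma adjusted p = 0.0577), where all 3 tumours lay above all controls. It was called there without the filter on low values (limma adjusted p = 0.0424) and with only the groups compared in the fit (0.0481).

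**Figure D3:**
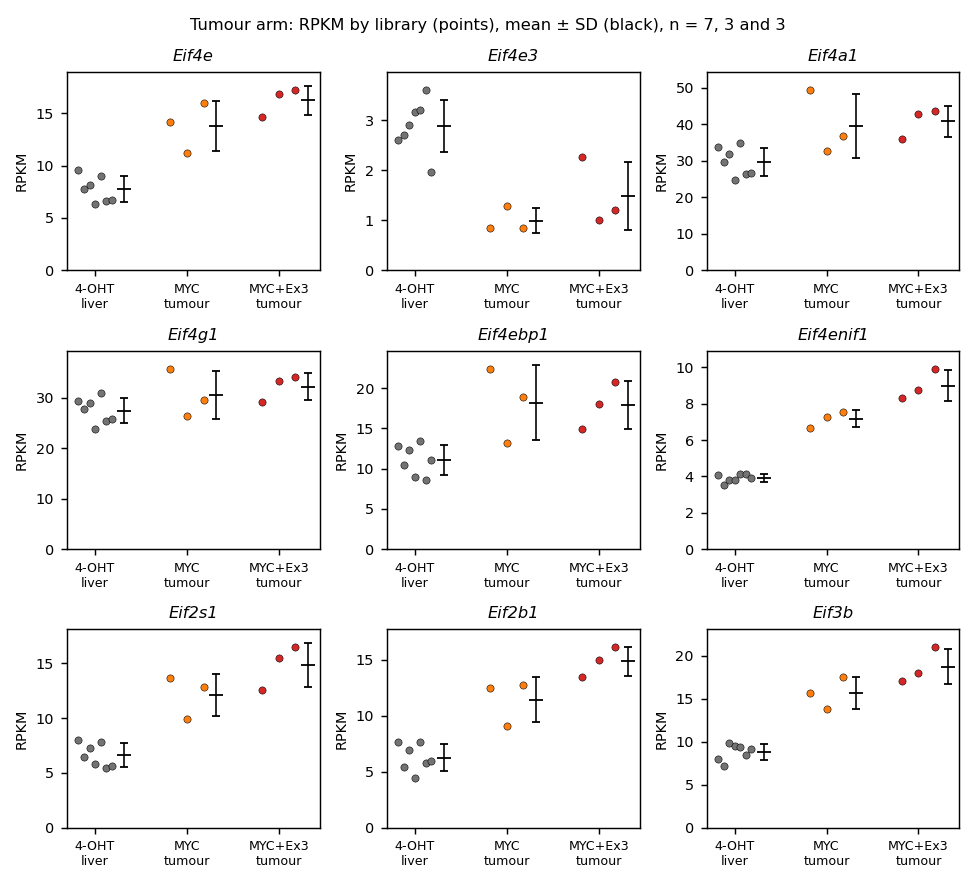
RPKM (vertical axes, from 0) of 9 Eif members in 4-OHT livers, MYC tumours and MYC+Ex3 tumours, one point per library, with mean ± SD in black (n = 7, 3 and 3). Eif4e, Eif4enif1, Eif2s1, Eif2b1 and Eif3b lie above all controls in all 6 tumours, Eif4e3 is 0.850 to 2.27 RPKM in tumours against 1.97 to 3.60 in controls, and Eif4g1 overlaps.

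All 3 MYC tumours were male, against 4 of 7 control livers. Tumours and control livers also differed in genotype and tissue, and the treatment of the tumours is not given. Genotype, tissue and treatment cannot be told apart here from MYC. In bulk tissue fewer cells of a type and less RNA per cell cannot be told apart either. Of 7 macrophage markers 5 were lower in each kind of tumour, with sums of 93.8 to 128 RPKM in controls, 32.2 to 103 in MYC tumours and 49.4 to 56.9 in MYC+Ex3 tumours. Of 6 endothelial markers 4 were lower (40.5 to 68.1 RPKM in sum in controls, 23.3 to 37.3 and 25.0 to 29.7 in tumours), and none of these markers was absent. In MYC+Ex3 tumours 4 of 8 hepatocyte markers, 2 of 3 tested cholangiocyte markers, 2 of 3 of T, B and NK cells and 4 of 7 of stellate cells were lower (1 of the latter higher). All 3 tested erythroid markers were higher there, with sums of 46.1 to 54.4 RPKM against 12.7 to 29.8 in controls. In MYC tumours 3 of 7 stellate cell markers were higher and 3 lower, and none of the hepatocyte, cholangiocyte, lymphocyte and erythroid markers was called. All 9 proliferation markers were higher (30.4 to 58.7 RPKM in sum in controls, 98.7 to 158 and 156 to 188 in tumours). Their part in the changes of the members was not tested.

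Rescaling by median ratios moved the median change of all genes in MYC tumours from 0.19 to 0.01 and that in MYC+Ex3 tumours from 0.23 to 0.05. It then called 29 members higher and 1 lower in MYC tumours, with 3212 genes higher and 2764 lower in place of 4286 and 1621. In MYC+Ex3 tumours it called 35 higher and 1 lower, with 4018 genes higher and 3211 lower in place of 5011 and 2178. The median change of the members was then 0.41 and 0.48. Without MYC tumour 3, 33 members were called in MYC tumours. With sex as a covariate 33 members were higher and 1 lower in MYC tumours, where 31.4% of all genes were higher. In MYC+Ex3 tumours 39 were then higher and 1 lower, where 41.4% of genes were higher.

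MYC+Ex3 tumours were not separated from MYC tumours by any member under the test: limma called 0 of 47, where 4.13% of genes were called in either direction. At an unadjusted p under 0.05 there were 3 members (6.38%), against 17.6% of all genes. The authors' deposited table called 0 members and 4.49% of genes. The smallest adjusted p was that of Eif2b3 (0.107, change 0.41), and 40 of 47 changes were above 0 with a median of 0.11, against 55.9% and 0.03 for all genes. In 6 members (12.8%) every MYC+Ex3 tumour lay above every MYC tumour, against 8.59% of all genes.

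**Figure D4:**
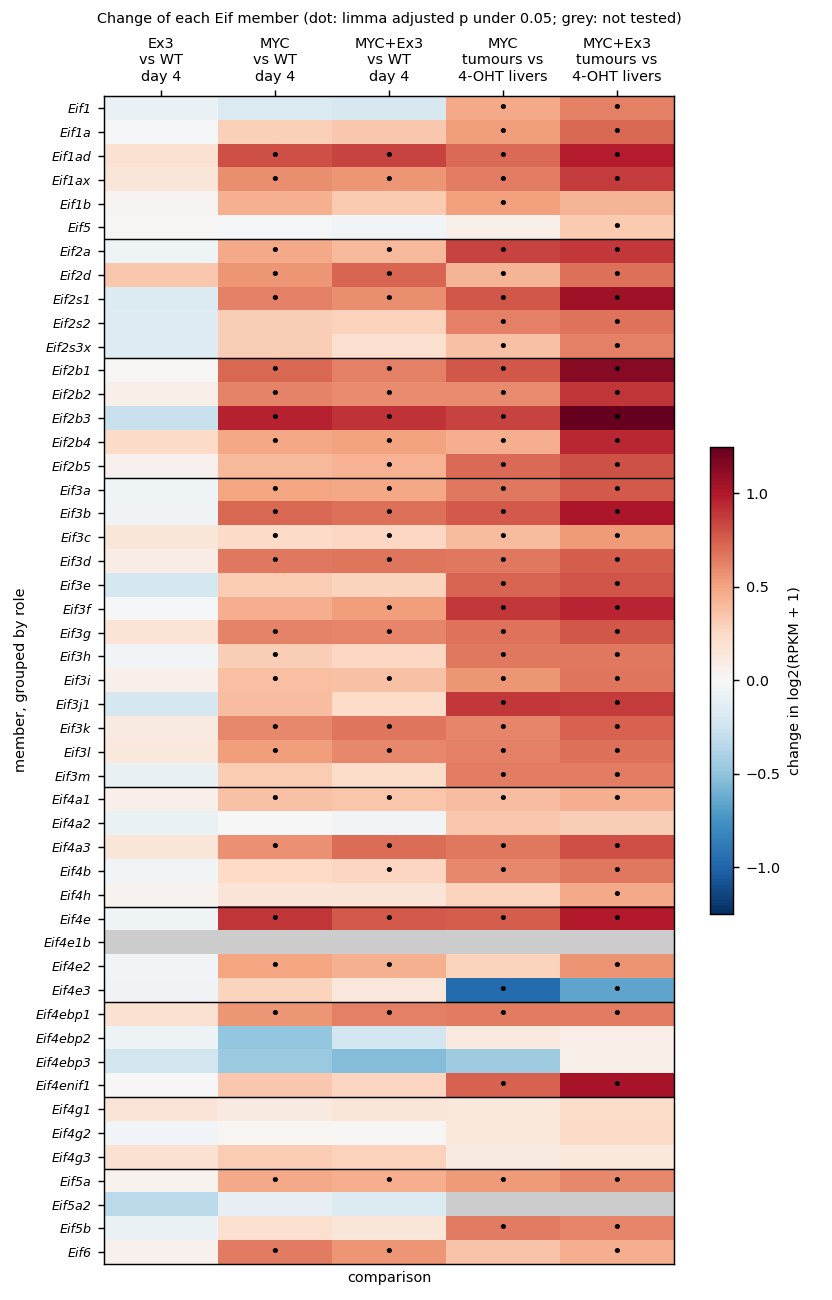
Change in log2(RPKM + 1) (colour) of each of the 49 Eif members (rows, grouped by role) in 5 comparisons (columns); dots mark a limma adjusted p under 0.05, grey cells were not tested. No dot falls in the Ex3 column, all 13 eIF3 and all 5 eIF2B rows carry dots in both tumour columns, the eIF4G rows carry none, and Eif4e3 has the only dots on blue.

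The livers and the tumours share no library. Of the 25 members higher in MYC livers 23 were also higher in MYC tumours, which is 92.0% of the first list and 63.9% of the 36 in the second. For all genes tested in both arms these shares were 90.1% and 47.2%, so the first share is near the background. All 27 members higher in MYC+Ex3 livers were higher in MYC+Ex3 tumours, 100% of the first list and 69.2% of the 39 in the second, against 91.8% and 43.7% for all genes. The 2 lost between MYC livers and tumours were Eif4e2 and Eif6, both above 0 in the tumours. After rescaling the 2 shares were 88.2% and 51.7% with MYC, against 85.7% and 48.8% for all genes. With MYC+Ex3 they were then 90.0% and 51.4%, against 89.6% and 44.5%. Across members the changes in MYC livers and MYC tumours had a Pearson r of 0.58 and a Spearman rho of 0.61 (47 genes, which are not independent and share libraries and depth within an arm). RPKM were lower in the tumour arm, where adding 1 RPKM understates changes more. Sizes of change in the 2 arms are therefore not directly comparable. The change was larger in the tumours for 37 of 47 members (78.7%) and for 59.0% of all genes. After rescaling it was so for 23 members (48.9%) and 48.1% of genes, so no order of the arms is read from the MYC counts. With MYC+Ex3 the change was larger in the tumours for 43 of 47 members (91.5%) and 60.3% of genes. After rescaling it was so for 35 members (74.5%) and 49.1% of genes. The cause was not tested.

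**Figure D5:**
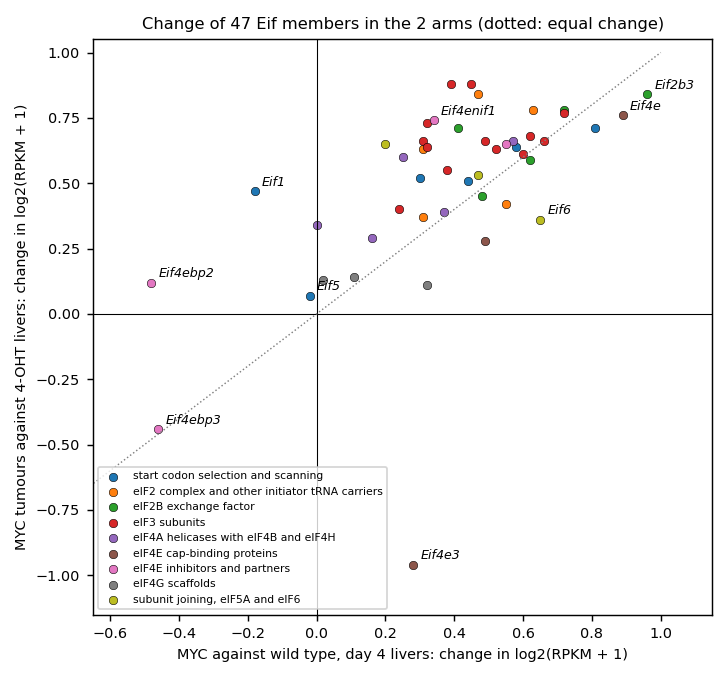
Change in log2(RPKM + 1) of 47 Eif members in MYC livers against WT at 4 days (horizontal axis) and in MYC tumours against 4-OHT livers (vertical axis), coloured by role; the dotted line marks equal change. Most members are above 0 on both axes, and Eif4e3 stands apart at 0.28 and -0.96; the number above the line, 37 of 47, was 23 after rescaling.

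Eif2s3x, the X-linked gene for the γ subunit of eIF2, has a Y-linked copy and is described here by sex, with no test. In WT livers it was 111, 105 and 122 RPKM in females and 86.5 and 87.8 in males. In Ex3 livers it was 111 and 117 in females and 74.3, 77.2 and 83.8 in males, so that the sexes did not overlap in these groups. In MYC livers they did overlap, with 149.9 and 108.3 RPKM in females (the latter in MYC liver 5) and 122.9, 107.2 and 148.6 in males. In MYC+Ex3 livers the only female was at 138.2 RPKM and the males at 104.3 to 128.0. In 4-OHT livers the sexes overlapped (16.8 to 20.5 in females, 14.3 to 18.6 in males). The change of Eif2s3x in MYC livers was 0.31 without a call (limma adjusted p = 0.132) and 0.37 with sex as a covariate (limma adjusted p = 0.0273). In MYC+Ex3 against Ex3 livers it was 0.36 (limma adjusted p = 0.0816) and 0.42 (limma adjusted p = 0.0129).

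Ratios of paralogs within a library do not depend on how the library is scaled, apart from the 0.1 RPKM added to both genes. That addition matters for low genes such as Eif5a2. In the AAV8-TBG-CRE livers the ratio of an abundant to a less abundant gene may also vary with depth. Of 40 exact two-sided permutation tests of 5 such ratios, none passed adjustment over the 40 (smallest adjusted p = 0.0741). The smallest p that 5 against 5 libraries allow is 0.00794, that of 3 against 7 is 0.0167, and that of 3 against 3 is 0.1. A ratio that alone reached such a limit could not pass adjustment over 40 tests, so no conclusion is drawn from the lack of calls. The log2 ratio of Eif4e to Eif4e3 was 1.4 ± 0.358 in control livers (SD, n = 7), 3.67 ± 0.561 in MYC tumours and 3.43 ± 0.696 in MYC+Ex3 tumours (n = 3 each). The differences of 2.27 and 2.04 had an exact permutation p of 0.0167 each. The log2 ratio of Eif4a1 to Eif4a2 was 0.41 ± 0.200 in WT and 0.78 ± 0.0995 in MYC livers (n = 5 each, exact permutation p = 0.00794), with no overlap. In MYC tumours the same ratio differed from controls by 0.05 (exact permutation p = 0.3). That of Eif5a to Eif5a2 was higher in Ex3 livers by 0.72 (exact permutation p = 0.00794), with a low count of reads in Eif5a2.

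The authors' deposited table holds their own calls. In it 14 of 48 members were higher in MYC livers and 23 of 48 in MYC+Ex3 livers, and none was lower. Of all genes 20.5% and 27.8% were called in either direction. Each of those members was also called by limma, but the reverse did not hold. In MYC livers limma alone called Eif1ax, Eif2a, Eif2b2, Eif2b4, Eif3a, Eif3c, Eif3h, Eif3i, Eif4a1, Eif4ebp1 and Eif5a. In MYC+Ex3 livers it alone called Eif2b5, Eif3c, Eif4a1 and Eif4b. For the tumours the authors' deposited table has 31 members higher and 2 lower with MYC (Eif4e3 and Eif4ebp3) and 39 higher and 1 lower with MYC+Ex3 (Eif4e3), where 44.5% and 60.7% of all genes were called in either direction. Of these 30 and 38 were also called higher by limma. Limma alone called Eif1, Eif1a, Eif1b, Eif2b4, Eif2s3x and Eif4a1 higher in MYC tumours, and Eif5 in MYC+Ex3 tumours. The authors alone called Eif5a2 higher in both kinds of tumour. It was below the filter here, with 0.243 ± 0.034 RPKM in controls (SD, n = 7), 0.481 ± 0.184 in MYC tumours and 0.635 ± 0.101 in MYC+Ex3 tumours (n = 3 each).

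A list of 37 other translation genes was counted beside the family. In MYC livers 12 were higher and 1 lower (16.9% and 5.36% of all genes), and in the tumours 15 and 24 of 35 were higher and 1 and 2 lower (36.2% and 42.3% of genes higher). Of 11 elongation and termination factors 6 were higher in MYC livers, led by Eef1e1, a protein of the tRNA synthetase complex, at 1.31 (limma adjusted p = 5.63e-05). Bzw2, an eIF5-mimic protein, changed more than any member, by 2.33 in MYC livers, 2.06 in MYC tumours and 2.46 in MYC+Ex3 tumours, from 5.39 ± 0.552 RPKM in WT to 32.4 ± 12.0 in MYC livers (n = 5 each, limma adjusted p = 3.23e-07). Pabpc4, which binds poly(A) tails, changed by 1.74, 1.57 and 1.77. Pdcd4, an inhibitor of eIF4A, was lower in MYC livers (-0.43) and in MYC+Ex3 tumours (-0.54).

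The enzymes that act on members were counted too. None of 6 genes for eIF2 kinases and eIF2 phosphatase subunits was called in MYC livers, and in MYC tumours none was higher and 1, Eif2ak2, was lower. In MYC+Ex3 tumours 3 of 6 were higher, near the 42.3% of all genes, and 1 lower. Ppp1r15a, which directs a phosphatase to eIF2α, went from 3.10 ± 0.753 to 10.2 ± 1.85 RPKM, a rise of 1.46 (limma adjusted p = 4.33e-05), and Eif2ak2, the kinase PKR, fell by 0.66. Ppp1r15a was also higher in MYC+Ex3 than in MYC tumours, by 1.02 (limma adjusted p = 0.0339), and was the only one of the 35 genes called there. Dohh, which completes the hypusine of eIF5A, rose by 0.58 in MYC livers and by 0.60 and 0.79 in the tumours. Dhps, which starts it, rose by 0.78 and 1.18 in the tumours and was at 0.30 in MYC livers (limma adjusted p = 0.264).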

How the data were processed

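Total RNA of 33 mouse livers and liver nodules was sequenced. Per the submitters' processing notes TopHat2 2.0.8, SAMtools, featureCounts 1.4.5-p1, DESeq2 and the build mm9 were used, without their settings. The authors deposited RPKM per library (0 columns belonged to other samples), and their table gives a log2 fold change and an adjusted p-value per comparison. For 20485 genes all RPKM were integer multiples of the worth of 1 read (100% of those not at 0; tolerance 0.001), from which reads were recovered. In the AAV8-TBG-CRE livers read numbers of abundant genes grew less than depth. The median slope of log2 reads on log2 depth was 0.55 for 13 members with a mean of at least 80 RPKM and 1.16 for 30 members at 10 to 80 RPKM. Changes of abundant members such as Eif4a1 and Eif4g1 may therefore be understated.

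RPKM plus 1 were put on a log2 scale and tested with limma 3.58.1 (R 4.3.3) with an empirical Bayes trend, two-sided, Benjamini-Hochberg over all genes, for genes with RPKM of at least 1 in at least 3 libraries of the fit. One fit held the 20 virus-treated livers, another the other 13 libraries. Members and lists were chosen with earlier results of these data known. The naming rule took the called member with the largest rise and fall of each role class (mean RPKM of at least 5). It also took classes of at most 3, and Eif2s1, Eif4a1, Eif4e, Eif4g1, Eif4ebp1, Eif5a and Eif6 in every comparison. Not all of these are given for each comparison in the text. Others are named after their values were seen. Ratios had 0.1 RPKM added to both genes. Eif1a and Eif1ax, Eif4a1 and Eif4a2, Eif3j1 and Eif5a have near-identical copies, and whether counting used strand is not given in the sources used here, so their levels are uncertain. The tests were tried on simulated data. Alternatives changed the pseudocount, the filter, the scaling, the covariates and the libraries.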

Additional observations from a re-analysis of the deposited data

Results flagged for a closer look

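In 120 groups of 4 to 10 libraries for 24 named members, 10 held a library apart from the others by more than the usual limit for a gap relative to the range; chance marks about 1 in 20 groups. Eif1ad was 18.4 RPKM in WT liver 3 against 13.0 to 14.1 in the other WT livers, and 18.2 in MYC liver 3 against 27.2 to 29.6 in the other MYC livers. Eif5a was 89.7 RPKM in WT liver 3, against 98.7 to 102. Eif2a was 14.9 RPKM in WT liver 1, against 17.7 to 18.5. Eif3f was 21.4 RPKM in WT liver 5, against 27 to 28.8. In Ex3 livers Eif2d was 12.1 RPKM in liver 3, against 13.6 to 14.1, and Eif4e3 was 7.34 in liver 5, against 6.09 to 6.45. Eif3b was 63.6 RPKM in MYC liver 4, the only MYC liver with keratin RNA, against 50.2 to 53.8. In 4-OHT livers Eif4a3 was 13.4 RPKM in liver 1, against 9.20 to 10.9, and Eif4ebp3 was 2.93 in liver 5, against 0.595 to 1.36.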

How the results depend on the processing

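Left-out libraries moved the number of called members within 21 to 30 for MYC livers, 22 to 28 for MYC+Ex3 against WT, 19 to 28 for MYC+Ex3 against Ex3, 31 to 40 for MYC tumours and 36 to 43 for MYC+Ex3 tumours. The comparisons with 0 stayed at 0. Shares of all genes called in the fits without a library are not given here, so these counts have no background. Within livers without keratin RNA the counts fell from 25 to 7 (MYC), 27 to 16 (MYC+Ex3 against WT) and 27 to 13 (against Ex3). The share of all genes called higher fell there too, from 16.9% to 7.09%, 17.9% to 14.1% and 16.4% to 12.4%. Against Ex3, 13 were also called within livers with keratin RNA (10.7% of all genes) and 16 after rescaling by median ratios (14.2%). Rescaling with the keratin set as a covariate, chosen after seeing the data, gave 28, 24 and 23. The shares of all genes called higher were then near or below 16.9%, 17.9% and 16.4%. No paired analysis was possible because the replicate numbers follow record order and pair no animals.

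Signs turned only for changes that were not called. Within livers without keratin RNA, Ex3 against WT gave Eif4a1 -0.09, Eif4e 0.06, Eif4ebp1 -0.05 and Eif6 -0.01; MYC gave Eif4ebp3 0.27; MYC+Ex3 against WT gave Eif4e3 -0.09 and Eif4ebp2 0.23; against Ex3 Eif4a2 -0.10, Eif4ebp2 0.03 and Eif4ebp3 0.07; against MYC Eif4e 0.01 and Eif6 0.05; the interaction Eif4ebp1 0.23 and Eif6 0.06. Rescaling gave Eif4a2 -0.10 and Eif4g2 -0.09 (MYC), Eif4g2 -0.07 (MYC+Ex3 against WT), Eif4a2 -0.02 and Eif4g2 -0.02 (against Ex3), and Eif4a1 0.01 and Eif5a 0.00 (against MYC). With the keratin covariate added, Eif4g2 was -0.07 against WT, and against Ex3 Eif4a2 was -0.02 and Eif4g2 -0.02. In MYC tumours rescaling gave Eif4ebp2 -0.08, Eif4g1 -0.07, Eif4g2 -0.08 and Eif4g3 -0.06, and in MYC+Ex3 tumours Eif4ebp2 -0.12, Eif4ebp3 -0.06 and Eif4g3 -0.05. With the 4-OHT livers of the S15 titles Eif4ebp3 was -0.09. A sex covariate gave Eif4a2 0.00 in MYC+Ex3 livers and Eif4ebp1 0.06 between the tumours. In livers with keratin RNA Eif4a2 was 0.11 and Eif4g2 -0.01. The causes were not tested.

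Leaving out a library spanned 0 for Ex3 against WT in Eif6 (-0.01 to 0.10) and Eif4e (-0.14 to 0.00); for MYC in Eif4a2 (-0.06 to 0.05) and Eif4g2 (-0.03 to 0.05); for MYC+Ex3 against WT in Eif4g2 (-0.05 to 0.05) and Eif4a2 (-0.13 to 0.05); against Ex3 in Eif4g1 (-0.04 to 0.02), Eif4ebp3 (-0.60 to 0.06), Eif4g3 (-0.05 to 0.23), Eif4a2 (-0.05 to 0.13) and Eif4g2 (-0.02 to 0.08). Against MYC it did so in Eif4a1 and Eif5a (-0.10 to 0.07 each), Eif4ebp1 (-0.01 to 0.14), Eif2s1 (-0.16 to 0.08) and Eif4e (-0.20 to 0.01), and for the interaction in Eif4e (-0.15 to 0.06), Eif4a1 (-0.16 to 0.02) and Eif5a (-0.15 to 0.03). In MYC+Ex3 tumours it did so in Eif4ebp3 (-0.18 to 0.30), Eif4ebp2 (-0.05 to 0.17) and Eif4g3 (-0.00 to 0.21), and between the tumours in Eif4ebp1 (-0.20 to 0.16), Eif4a1 (-0.07 to 0.23), Eif4g1 (-0.01 to 0.20), Eif5a (-0.07 to 0.22) and Eif6 (-0.05 to 0.26).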
